A study of Mus musculus with 6 samples.

Results

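The genes described here encode the nuclear subunits and assembly factors of respiratory complexes II, III, IV and V, measured by RNA sequencing in mouse hearts. They were taken by symbol: every entry that starts with Sdh followed by a, b, c or d, with Uqcr, with Cox followed by a digit, or with Atp5, and Cyc1, with pseudogene entries left out. This gave 61 of the 46095 genes in the table. By role, 4 are subunits of complex II, 9 of complex III, 17 of complex IV and 15 of complex V, and 16 are assembly factors or other members. The study compared 3 hearts from STAT3cKO mice, with STAT3 deleted in cardiomyocytes only, and 3 hearts from wild-type mice, to look for pathways that bear on cardiac function. Title numbers 3, 6 and 91 (STAT3cKO) and 1, 3 and 4 (wild type) name the replicates, and values are given in that order throughout. The labels give no age, sex, litter, treatment or Cre line, and they do not state whether 1 library stands for 1 animal. The p-values therefore measure how far these libraries spread, and that spread may be technical only.

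As background, the respiratory chain of the inner mitochondrial membrane passes electrons from NADH and succinate to oxygen and pumps protons, and ATP synthase uses the proton gradient to make ATP. Complex II is also an enzyme of the citric acid cycle. Complex III hands electrons to cytochrome c, complex IV passes them to oxygen, and complex V is the ATP synthase. Heart muscle is rich in mitochondria, and complex IV has subunits that exist as a heart and skeletal muscle isoform and as a general isoform. Except for complex II, these complexes also hold subunits encoded by mitochondrial DNA.

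Library totals ran from 15416877 to 17867944 counts in STAT3cKO hearts and from 16168682 to 18264052 counts in wild-type hearts. Stat3 itself was at 52.9, 63.7 and 59.6 CPM in STAT3cKO hearts, against 99.7, 85.8 and 97.5 CPM in wild-type hearts, with no overlap (log2 fold change -0.68 ± 0.10 (SE), edgeR adjusted p = 0.000677). Values below are CPM, counts scaled to the library size after TMM normalization, fold changes are STAT3cKO over wild type, and a gene is called higher or lower at an adjusted p under 0.05 over all genes tested. The cardiomyocyte markers Myh6, Tnnt2 and Tnni3 averaged 16133, 6927 and 5619 CPM in STAT3cKO hearts, against 17021, 4730.4 and 3659 CPM in wild-type hearts. Of the 8 such markers listed, Tnnt2, Tnni3 and Myl2 were higher and Ryr2 was lower, and the others, Myh6 among them, did not pass. Ryr2 averaged 920 CPM in STAT3cKO hearts and 1447 CPM in wild-type hearts (log2 fold change -0.65, edgeR adjusted p = 0.00603).

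Most of the genes for complexes II to V were higher in STAT3cKO hearts, and a few were lower. Of the 61 members, 59 had enough counts to be tested. Among these 59, 37 were higher and 3 were lower (edgeR), while 13.2% of all 14484 genes tested were higher, 12.6% were lower and 25.8% changed in either direction. The median log2 fold change was 0.39 over the members and -0.0016 over all genes tested. The groups did not overlap for 38 members that were higher and 7 that were lower in every STAT3cKO heart, against 21.5% of all genes tested in each direction. For 31 of the 37 higher members, wild type replicate 1 was the highest wild-type heart, and so the nearest to the STAT3cKO hearts. This was not counted over all genes called higher, so it cannot be read as particular to the members.

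Complex II had 2 higher and 1 lower of 4 tested, complex III 5 higher and 0 lower of 9, and complex IV 11 higher and 0 lower of 15. Complex V had 10 higher and 0 lower of 15, and the assembly and other members 9 higher and 2 lower of 16. At an unadjusted p under 0.05, 42 members passed, against 38.6% of all genes tested.

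**Figure D1:**
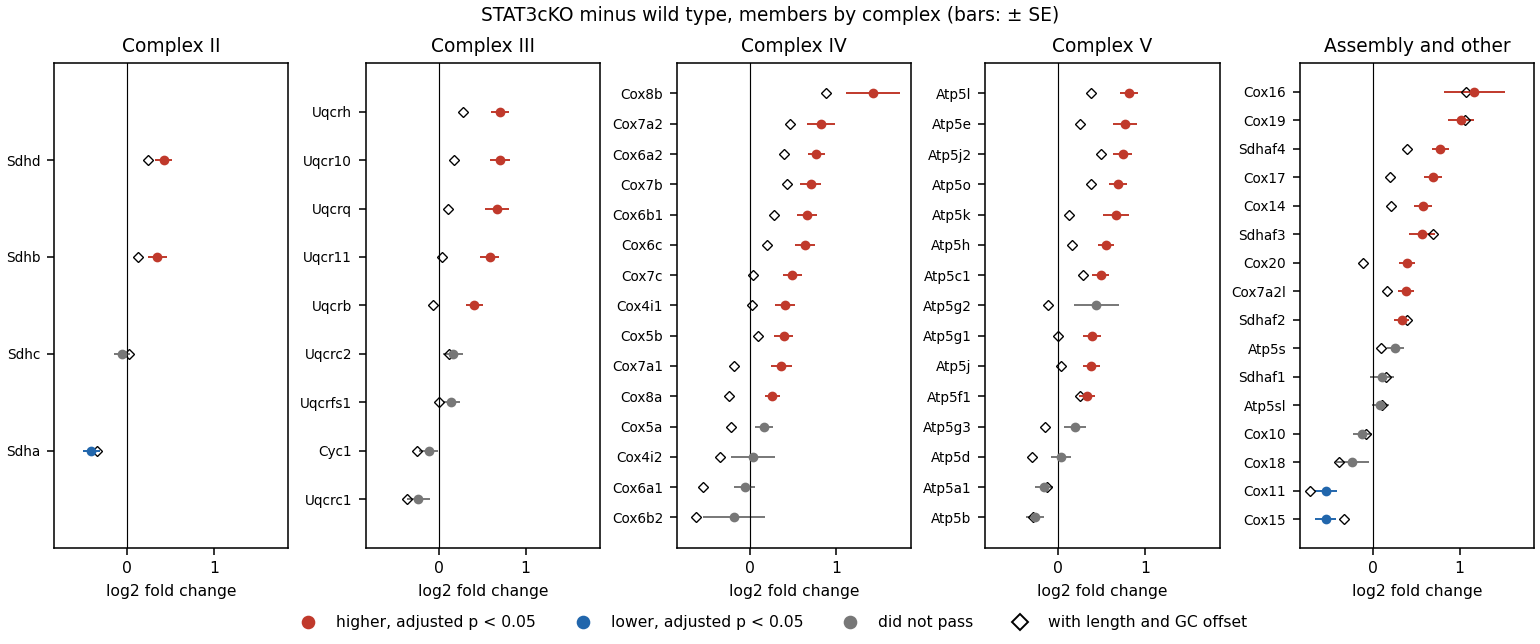
Log2 fold changes (horizontal axis, STAT3cKO minus wild type) of the 59 tested members, grouped by complex, with filled points and bars for the edgeR estimate and its SE and open diamonds for the fit with a length and GC offset. Filled points lie to the right of 0 for most members, from -0.54 for Cox15 to 1.43 for Cox8b, and most diamonds lie nearer 0.

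These genes are short, and short transcripts as a class were higher in STAT3cKO hearts. The median transcript length was 745 nt over the tested members and 2731 nt over all tested genes with a length. Of 30 members under 750 nt, 24 were higher and 0 lower, while 37.5% of all 937 tested genes of that length were higher and 1.92% were lower. Of 13 members from 750 to under 1500 nt, 8 were higher and 1 lower, while 26.2% of all tested genes of that length were higher and 2.82% lower. Of 13 members from 1500 to under 3000 nt, 4 were higher and 1 lower, while 12.7% of all tested genes of that length were higher and 7.14% lower. Of the 3 longer members, 1 was higher and 1 lower, while 5.35% of all tested genes that long were higher and 22.6% lower. Across genes, which share libraries and are no replicates, the rank correlation (Spearman's rho) of length with the log2 fold change was -0.513 over the 59 members and -0.449 over 13581 genes. Within the complexes it was -0.717 over 9 members of complex III, 0.093 over 15 of complex IV and -0.611 over 15 of complex V. The complex IV members spanned a narrower range, 360 to 1001 nt, against 405 to 1896 nt in complex III and 371 to 2471 nt in complex V.

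The slope of log2 CPM on log2 length, relative to each gene's mean, was -0.0969, -0.0729 and -0.101 per doubling in STAT3cKO replicates 3, 6 and 91, and 0.0509, 0.0939 and 0.126 in wild type replicates 1, 3 and 4. All 3 STAT3cKO slopes were below 0 and all 3 wild-type slopes above 0, with wild type replicate 1 again nearest to the STAT3cKO hearts. A second fit therefore removed each heart's trend on length and GC content as an offset. In that fit 12 members were higher and 4 lower, while 10.6% of all genes tested were higher and 7.84% lower, and the members' median log2 fold change was 0.11. All 12 were also higher without the offset, and 25 of the 37 higher calls were lost. The 12 were Uqcrh, Cox6a2, Cox7a2, Cox7b, Cox8b, Atp5j2, Atp5l, Atp5o, Sdhaf2, Sdhaf3, Sdhaf4 and Cox19. Sdha and Cox11 were lower in both fits, and Cox6a1 and Atp5d were lower only with the offset. A difference of the cells that depends on length and a difference of the libraries that depends on length cannot be told apart here.

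**Figure D2:**
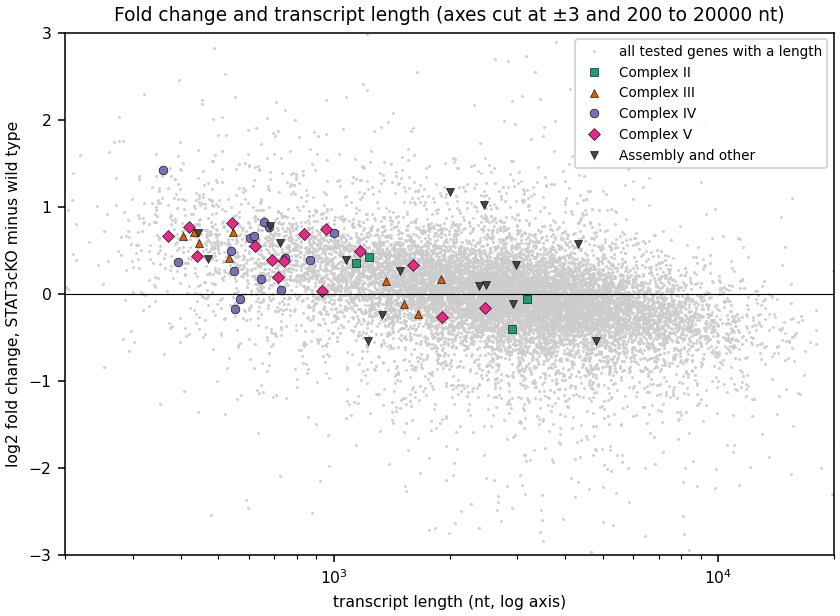
Log2 fold change (vertical axis, STAT3cKO minus wild type) against transcript length in nt (horizontal log axis) for all tested genes with a length (grey) and the members by complex (coloured symbols); 69 genes fall outside the axes. Members under 750 nt lie mostly above 0, with a median of 0.57, and the grey points of that length class have a median of 0.50.

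In complex II the catalytic subunit was lower, 2 of its partners were higher and the other did not pass. Sdha, the flavoprotein that oxidises succinate (chromosome 13, 74322255 to 74350240, GRCm38), stood at 1264, 1232 and 1129 CPM in STAT3cKO hearts, against 1630.2, 1582 and 1602 CPM in wild-type hearts. Every STAT3cKO heart was below every wild-type heart (log2 fold change -0.41 ± 0.10 (SE), edgeR adjusted p = 0.00928), and Sdha stayed lower in all 6 fits that left out 1 heart and with the offset (log2 fold change -0.34, edgeR adjusted p = 0.0288).

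Sdhb, the iron-sulfur subunit, was at 791, 811 and 684 CPM in STAT3cKO hearts, against 672, 559 and 564 CPM in wild-type hearts (log2 fold change 0.35 ± 0.11 (SE), edgeR adjusted p = 0.0351). Sdhd, a membrane anchor, was at 529.7, 579.8 and 543 CPM in STAT3cKO hearts, against 449, 376 and 408 CPM in wild-type hearts (log2 fold change 0.42 ± 0.10 (SE), edgeR adjusted p = 0.00888). Both were higher in all 3 STAT3cKO hearts, but neither passed with the offset (adjusted p = 0.429 and 0.086). The Sdhb call was lost without STAT3cKO replicate 3 or 6 or wild type replicate 3 or 4 (edgeR adjusted p from 0.0799 to 0.142), and the Sdhd call without wild type replicate 3 (0.0551). Sdhc, the other anchor, overlapped between groups at 345 ± 16.9 CPM in STAT3cKO hearts and 360.1 ± 20.6 CPM in wild-type hearts (SD, n = 3 each; log2 fold change -0.06). Summed over the 4 subunits, STAT3cKO hearts held 2947, 2969 and 2684 CPM, against 3134, 2871 and 2917 CPM in wild-type hearts, so the sums overlapped.

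In complex III the small subunits rose and the core subunits did not pass. Uqcrh, the hinge protein beside cytochrome c1, was at 877, 886 and 875 CPM in STAT3cKO hearts, against 603, 516 and 496 CPM in wild-type hearts. Its 3 STAT3cKO values had an SD of 5.83 CPM and all lay above the wild-type hearts (log2 fold change 0.71 ± 0.10 (SE), edgeR adjusted p = 0.000696). Uqcr10 was at 581, 529 and 536 CPM in STAT3cKO hearts, against 384, 334 and 291 CPM in wild-type hearts (log2 fold change 0.71 ± 0.11 (SE), edgeR adjusted p = 0.00106). Uqcrq was at 809, 769 and 691 CPM in STAT3cKO hearts, against 583, 457 and 387 CPM in wild-type hearts (log2 fold change 0.67 ± 0.14 (SE), edgeR adjusted p = 0.00514). Uqcr11 averaged 478 ± 26.7 CPM in STAT3cKO hearts and 318 ± 41.2 CPM in wild-type hearts (SD, n = 3 each; log2 fold change 0.59), and Uqcrb, which also rose, had a log2 fold change of 0.41. These 5 small accessory subunits, encoded by transcripts of 405 to 547 nt, passed in all 6 fits that left out 1 heart. With the offset only Uqcrh remained higher among the 9 (log2 fold change 0.28, edgeR adjusted p = 0.0431). When the offset used the longest transcripts, Uqcrh did not pass (log2 fold change 0.24, edgeR adjusted p = 0.0812) and Uqcrq did (log2 fold change 0.54, edgeR adjusted p = 0.0143, against 0.11 and 0.465 with the first offset).

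The larger subunits of complex III did not pass. Uqcrc2, a core subunit with the highest mean CPM of the complex, was at 896, 1039 and 782 CPM in STAT3cKO hearts, against 869, 765 and 791 CPM in wild-type hearts (log2 fold change 0.16 ± 0.12 (SE), edgeR adjusted p = 0.322). Uqcrfs1, the Rieske iron-sulfur protein, had a log2 fold change of 0.14 and Cyc1, cytochrome c1, one of -0.11, and neither passed (edgeR adjusted p = 0.301 and 0.466). Uqcrc1, the other core subunit, held only 5.76 CPM per kb in STAT3cKO hearts and 6.79 CPM per kb in wild-type hearts, against 478 and 426 CPM per kb for its partner Uqcrc2. How reads that map to several places were treated is not given in the sources used here, so levels of single members that stand this far below their partners are uncertain.

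In complex IV, cytochrome c oxidase, 11 of 15 tested members rose. Its summed level was 10348, 10144 and 9445 CPM in STAT3cKO hearts, against 7576, 6442 and 5996 CPM in wild-type hearts, with no overlap. Cox7b was at 943, 996 and 934 CPM in STAT3cKO hearts, against 698, 562 and 504 CPM in wild-type hearts (log2 fold change 0.70 ± 0.12 (SE), edgeR adjusted p = 0.00166). Cox6b1, which faces cytochrome c, was at 1061, 1019 and 971 CPM in STAT3cKO hearts, against 758, 585 and 584 CPM in wild-type hearts (log2 fold change 0.66 ± 0.12 (SE), edgeR adjusted p = 0.00196). Cox6c was at 992, 1012 and 927 CPM in STAT3cKO hearts, against 714, 622 and 549 CPM in wild-type hearts (log2 fold change 0.64 ± 0.11 (SE), edgeR adjusted p = 0.00184). For these 3 accessory subunits every STAT3cKO heart exceeded every wild-type heart, and only Cox7b also passed with the offset (adjusted p = 0.0245). Cox5b and Cox7c rose as well, with log2 fold changes of 0.39 and 0.49, while Cox5a did not pass (0.17, edgeR adjusted p = 0.248). Cox7c held 75.7 CPM per kb in STAT3cKO hearts and 53.7 in wild-type hearts, against 1612 and 1037 for Cox6c. With multi-mapped reads handled in an unknown way, its level is uncertain. The Cox5b call was lost without STAT3cKO replicate 3, STAT3cKO replicate 6, wild type replicate 3 or wild type replicate 4 (edgeR adjusted p from 0.0526 to 0.0851).

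**Figure D3:**
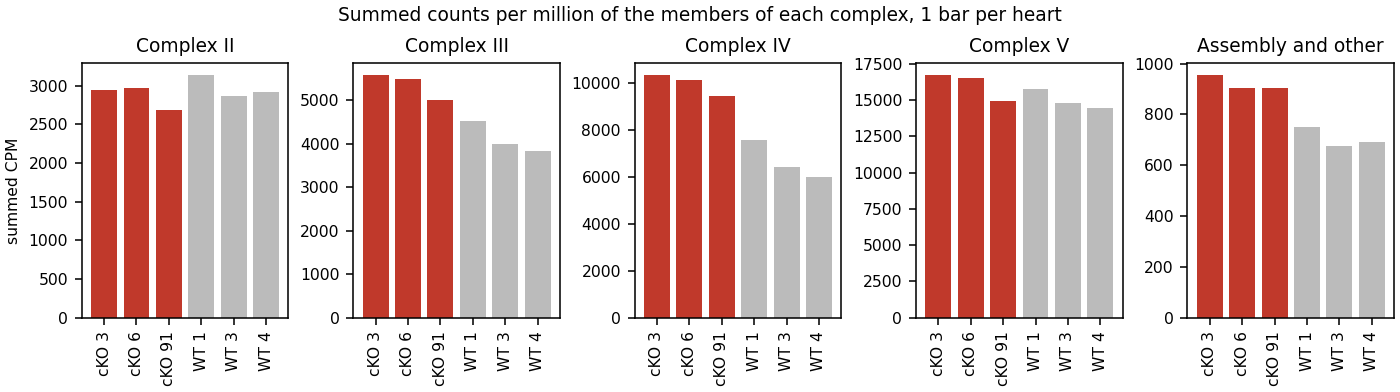
Summed CPM of the members of each class (vertical axes, from 0), 1 bar per heart, STAT3cKO in red and wild type in grey. The sums do not overlap for complex III, complex IV and the assembly class, and overlap for complexes II and V.

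The shift between groups in the ratio of muscle to general isoforms of complex IV differed in sign between pairs. In every STAT3cKO heart the ratios of Cox6a2 to Cox6a1 and of Cox8b to Cox8a were above all wild-type hearts, and the ratio of Cox7a1 to Cox7a2 was below them. Cox6a2, the heart and skeletal muscle form of subunit VIa (chromosome 7, 128205435 to 128206366, GRCm38), which shares exon bases with Itgad on the opposite strand, was at 1980.3, 1924 and 1885 CPM in STAT3cKO hearts, against 1159, 1180.3 and 1059 CPM in wild-type hearts (log2 fold change 0.77 ± 0.10 (SE), edgeR adjusted p = 0.000352). Its general partner Cox6a1 was at 59.6, 48.9 and 64.4 CPM in STAT3cKO hearts, against 67.0, 53.4 and 59.7 CPM in wild-type hearts, and the groups overlapped (log2 fold change -0.06 ± 0.12 (SE), edgeR adjusted p = 0.746). With the offset Cox6a1 was lower (log2 fold change -0.54, edgeR adjusted p = 0.00566). Per length, Cox6a2 made up 96.5%, 97.1% and 96.1% of the pair in STAT3cKO hearts and 93.6%, 94.9% and 93.7% in wild-type hearts. The log2 ratio of Cox6a2 to Cox6a1 was 5.05, 5.30 and 4.87 in STAT3cKO hearts and 4.11, 4.47 and 4.15 in wild-type hearts, a difference of means of 0.83.

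Cox8b, the muscle form of subunit VIII, showed the largest log2 fold change of all tested members. It was at 559, 521 and 565 CPM in STAT3cKO hearts, against 308, 161 and 142 CPM in wild-type hearts. The 3 STAT3cKO hearts lay close together and above all wild-type hearts, among which replicate 1 was the highest (log2 fold change 1.43 ± 0.31 (SE), edgeR adjusted p = 0.0241). The call was lost with any 1 STAT3cKO heart or wild type replicate 3 left out (edgeR adjusted p from 0.0525 to 0.107). It held without wild type replicate 1 (2.06e-05) and with the offset (0.0104). It was lost with library size alone (edgeR adjusted p = 0.0503) and without the count filter (0.0833). Cox8a, the general form, was at 124, 112 and 116 CPM in STAT3cKO hearts, against 102, 94.97 and 95.7 CPM in wild-type hearts (log2 fold change 0.26 ± 0.09 (SE), edgeR adjusted p = 0.0385), a call that held in only 1 of the 6 fits that left out 1 heart. It was lost without STAT3cKO replicate 3, STAT3cKO replicate 91, wild type replicate 1, wild type replicate 3 or wild type replicate 4 (edgeR adjusted p from 0.0527 to 0.142). Per length, Cox8b made up 87.3%, 87.6% and 88.2% of the pair in STAT3cKO hearts and 82.1%, 72.2% and 69.4% in wild-type hearts. The log2 ratio of Cox8b to Cox8a was 2.17, 2.21 and 2.29 in STAT3cKO hearts and 1.59, 0.77 and 0.57 in wild-type hearts, a difference of means of 1.25.

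Cox7a1, the muscle form of subunit VIIa, was at 729, 703 and 577 CPM in STAT3cKO hearts, against 600.5, 491 and 466 CPM in wild-type hearts. Its lowest STAT3cKO heart lay below its highest wild-type heart (log2 fold change 0.37 ± 0.12 (SE), edgeR adjusted p = 0.0451), and the call was lost without STAT3cKO replicate 3 or 6 or wild type replicate 3 or 4 (edgeR adjusted p from 0.0934 to 0.165). Its partner Cox7a2, expressed in most tissues, was at 481, 427 and 452 CPM in STAT3cKO hearts, against 334, 224 and 212 CPM in wild-type hearts, with no overlap (log2 fold change 0.82 ± 0.16 (SE), edgeR adjusted p = 0.00453). Per length, Cox7a1 made up 71.8%, 73.4% and 68.1% of the pair in STAT3cKO hearts and 75.1%, 78.6% and 78.7% in wild-type hearts. The log2 ratio of Cox7a1 to Cox7a2 was 0.60, 0.72 and 0.35 in STAT3cKO hearts and 0.85, 1.13 and 1.14 in wild-type hearts, a difference of means of -0.48.

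Subunit IV has a general form, Cox4i1, and a form known from lung, Cox4i2. Cox4i1, the complex IV member with the highest mean per-length level in wild type, shares exon bases with Emc8 on the opposite strand and was at 1963, 1813 and 1679 CPM in STAT3cKO hearts, against 1585, 1310.5 and 1216 CPM in wild-type hearts (log2 fold change 0.41 ± 0.12 (SE), edgeR adjusted p = 0.0247), and its call was lost without STAT3cKO replicate 3 or wild type replicate 3 or 4 (edgeR adjusted p from 0.0946 to 0.109). Cox4i2 was at 8.53, 6.56 and 4.43 CPM in STAT3cKO hearts, against 7.67, 6.50 and 4.66 CPM in wild-type hearts, overlapping throughout, and made up under 1% of the pair per length in every heart. The log2 ratio of Cox4i2 to Cox4i1 was -7.84, -8.10 and -8.56 in STAT3cKO hearts and -7.69, -7.65 and -8.02 in wild-type hearts, a difference of means of -0.38.

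Across the 4 pairs, the exact permutation test cannot go below 0.1 with 3 hearts against 3. The two-sided p of that test was 0.1 for the ratios with Cox6a2, Cox8b and Cox7a1 and 0.2 for that with Cox4i2, or 0.133 and 0.2 adjusted over the 4 pairs. The groups did not overlap for the pairs with Cox6a2, Cox8b and Cox7a1. A ratio within a heart does not depend on the scaling factor, and with the offset the differences of the 4 ratios were 0.94, 1.15, -0.66 and -0.39 for Cox6a2, Cox8b, Cox7a1 and Cox4i2 over their partners. Among the members known from testis, Cox6b2 held 1.08 CPM in STAT3cKO hearts and 1.22 CPM in wild-type hearts, and Cox7b2 and Cox8c fell under the count filter, Cox8c with 0 counts in all 6 hearts.

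**Figure D4:**
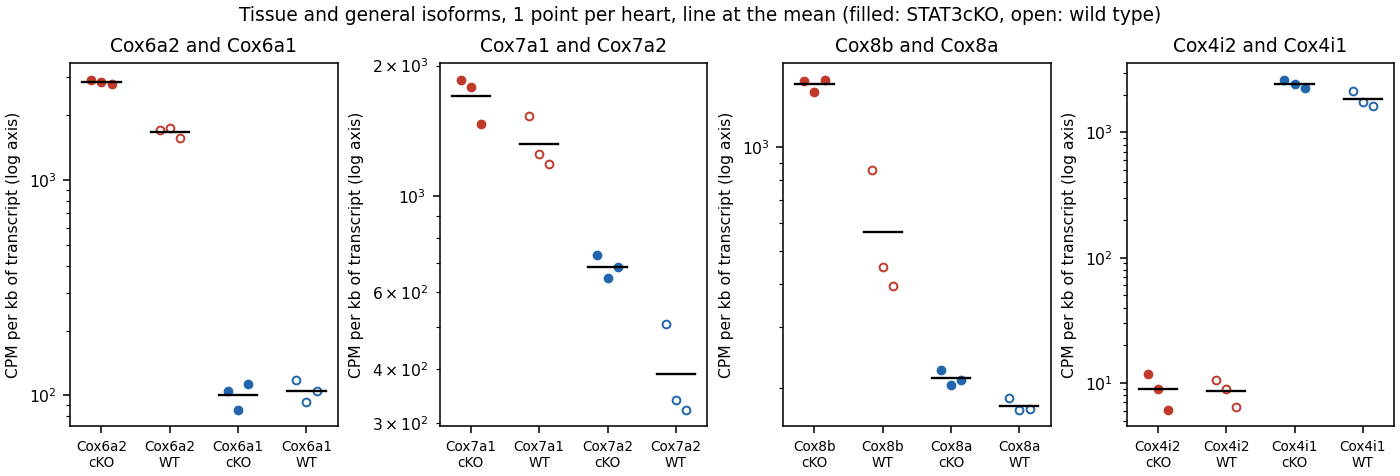
CPM per kb of transcript (vertical log axes) of the muscle or tissue isoform (red) and the general isoform (blue) in 4 pairs of complex IV, 1 point per heart with a line at the mean, filled for STAT3cKO and open for wild type. Cox6a2 and Cox8b are separated between the groups, Cox6a1 overlaps, and Cox7a2 is separated while Cox7a1 overlaps.

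The proximal promoters of the isoform pairs are shown because the ratios of those pairs did not overlap between the groups, from 250 bases before to 50 after the annotated start (RefSeq, GRCm38.p6). The Cox8b window covers chr7:140900397-140900696 (minus strand), that of Cox8a chr19:7217567-7217866 (minus strand), that of Cox7a1 chr7:30183921-30184220 (plus strand), that of Cox7a2 chr9:79759804-79760103 (minus strand) and that of Cox6a1 chr5:115348909-115349208 (minus strand). Capitals mark matches on either strand to the motif of NRF1 (a palindrome), of estrogen-related receptors (TCAAGGTCA), of STAT factors (TTCNNNGAA), the letters TATAAA or the E-box CAGCTG. The last pair of motifs was added after the sequences were seen.
Cox8b: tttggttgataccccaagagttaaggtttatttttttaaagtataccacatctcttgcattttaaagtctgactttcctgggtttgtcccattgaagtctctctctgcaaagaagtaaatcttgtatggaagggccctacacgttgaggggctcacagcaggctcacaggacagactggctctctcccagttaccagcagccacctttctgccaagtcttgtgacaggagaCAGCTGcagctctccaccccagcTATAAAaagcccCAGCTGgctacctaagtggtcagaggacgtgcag
Cox8a: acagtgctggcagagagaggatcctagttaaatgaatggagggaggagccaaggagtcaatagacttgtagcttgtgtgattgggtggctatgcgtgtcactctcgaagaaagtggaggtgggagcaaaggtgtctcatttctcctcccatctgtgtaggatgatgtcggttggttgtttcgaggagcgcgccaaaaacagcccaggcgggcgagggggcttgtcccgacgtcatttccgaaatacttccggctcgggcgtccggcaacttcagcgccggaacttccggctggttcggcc
Cox7a1: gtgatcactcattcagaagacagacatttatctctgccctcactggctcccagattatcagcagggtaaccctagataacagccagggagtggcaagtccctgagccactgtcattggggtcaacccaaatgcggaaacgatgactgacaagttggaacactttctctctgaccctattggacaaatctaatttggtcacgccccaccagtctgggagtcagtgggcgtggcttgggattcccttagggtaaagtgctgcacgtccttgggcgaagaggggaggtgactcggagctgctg
Cox7a2: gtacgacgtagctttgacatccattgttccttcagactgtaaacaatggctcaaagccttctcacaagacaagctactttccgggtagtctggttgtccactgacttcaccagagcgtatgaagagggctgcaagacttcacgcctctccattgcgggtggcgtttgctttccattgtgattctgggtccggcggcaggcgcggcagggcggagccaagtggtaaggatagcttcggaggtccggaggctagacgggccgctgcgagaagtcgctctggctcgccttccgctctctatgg
Cox6a1: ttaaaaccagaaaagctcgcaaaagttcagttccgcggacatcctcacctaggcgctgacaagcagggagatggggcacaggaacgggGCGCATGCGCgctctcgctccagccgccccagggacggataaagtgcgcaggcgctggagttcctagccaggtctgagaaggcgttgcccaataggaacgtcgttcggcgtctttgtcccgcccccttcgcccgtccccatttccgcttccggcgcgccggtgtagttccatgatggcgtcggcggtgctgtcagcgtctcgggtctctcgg

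CpG dinucleotides numbered 2 in the window of Cox8b and 7 in that of Cox7a1, against 19 for Cox8a, 20 for Cox7a2 and 32 for Cox6a1; the Cox6a2 window was not analysed here. The median was 20 over the 48 members with a promoter sequence and 7 over all 27025 genes. Cox8b held a match to TATAAA, which lies after the annotated start, and 2 to CAGCTG, and Cox6a1 a match to the NRF1 motif, while none of the motifs searched was found in the windows of Cox8a, Cox7a1 and Cox7a2. The NRF1 motif was present for 4 of the 48 members (8.33%), namely Cox6a1, Atp5g2, Atp5k and Uqcrc1, against 1.07% of all genes. The estrogen-related receptor motif was present for Sdhd and Atp5g3 (4.17%, against 0.466%). Atp5d, Atp5f1 and Atp5o held the STAT motif (6.25%, against 9.55% of all genes). TATAAA was found for 10.4% of members, against 15.7%, and CAGCTG for 4.17%, against 18.3%. A match is a description of these letters and not evidence of binding.

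In complex V all 4 peripheral stalk subunits and the membrane subunits e, f and g rose, and the large subunits of the catalytic head did not pass. With the offset, Atp5o, Atp5j2 and Atp5l alone remained higher in this complex. Atp5b, the catalytic beta subunit, held the highest CPM of all members, at 4105, 4094 and 3529.8 CPM in STAT3cKO hearts, against 4807, 4685 and 4645 CPM in wild-type hearts. Every STAT3cKO heart was below every wild-type heart, but Atp5b did not pass (log2 fold change -0.27 ± 0.11 (SE), edgeR adjusted p = 0.0796). With DESeq2 it was called lower (adjusted p = 0.024), and so it was in edgeR with library size alone (0.00746), where 7.66% of all genes tested were higher and 18.7% lower. Atp5a1, the alpha subunit, was likewise below wild type in all 3 STAT3cKO hearts, at 3888, 3715 and 3433 CPM in STAT3cKO hearts, against 4224, 4096 and 4074 CPM in wild-type hearts (log2 fold change -0.17 ± 0.10 (SE), edgeR adjusted p = 0.246), and it was called lower in edgeR with library size alone (adjusted p = 0.0354).

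Of the central stalk subunits, 2 of 3 rose, and neither of these passed with the offset (edgeR adjusted p = 0.059 for Atp5c1 and 0.0846 for Atp5e). Atp5c1, the gamma subunit, averaged 1296 ± 101 CPM in STAT3cKO hearts and 924 ± 46.3 CPM in wild-type hearts (SD, n = 3 each; log2 fold change 0.49, edgeR adjusted p = 0.00472). Atp5e, the epsilon subunit, rose by a log2 fold change of 0.77, while Atp5d, the delta subunit, overlapped between groups (0.04, edgeR adjusted p = 0.843) and was lower with the offset (-0.30, adjusted p = 0.0446).

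In the peripheral stalk, Atp5o, the oligomycin sensitivity protein that ties the stalk to the head, was at 1238, 1268 and 1172 CPM in STAT3cKO hearts, against 847, 729.9 and 701 CPM in wild-type hearts (log2 fold change 0.69 ± 0.10 (SE), edgeR adjusted p = 0.000853). Atp5h, stalk subunit d, was at 650.2, 635 and 628 CPM in STAT3cKO hearts, against 430.3, 434 and 440.0 CPM in wild-type hearts (log2 fold change 0.55 ± 0.09 (SE), edgeR adjusted p = 0.00115). Both sets of hearts were tight for Atp5h, with SDs of 11.3 CPM in STAT3cKO hearts and 4.90 CPM in wild-type hearts, and did not overlap. With the offset its log2 fold change was 0.16 (adjusted p = 0.277). Stalk subunit b, Atp5f1, and coupling factor 6, Atp5j, rose with log2 fold changes of 0.33 and 0.38. Neither passed with the offset (adjusted p = 0.0927 and 0.849). Atp5f1 and Atp5j share exon bases with Wdr77 and Gabpa on the opposite strand, so without a known strand setting their counts are uncertain. The Atp5f1 call was lost without STAT3cKO replicate 3, STAT3cKO replicate 6, wild type replicate 3 or wild type replicate 4 (edgeR adjusted p from 0.0511 to 0.107), and the Atp5j call without STAT3cKO replicate 3 (adjusted p = 0.0557) or wild type replicate 1 (adjusted p = 0.0645).

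Atp5l, subunit g, was at 72.8, 68.4 and 75.8 CPM in STAT3cKO hearts, against 44.9, 42.6 and 35.7 CPM in wild-type hearts (log2 fold change 0.82 ± 0.10 (SE), edgeR adjusted p = 0.000303). Atp5j2, subunit f, was at 818, 721 and 762 CPM in STAT3cKO hearts, against 525, 426 and 424 CPM in wild-type hearts (log2 fold change 0.74 ± 0.11 (SE), edgeR adjusted p = 0.000797). Both, like Atp5o, also passed with the offset (adjusted p = 0.0104 for Atp5l, 0.00638 for Atp5j2 and 0.0152 for Atp5o). Atp5l held 133 CPM per kb in STAT3cKO hearts and 75.5 in wild-type hearts, against 803 and 480 for Atp5j2. With multi-mapped reads handled in an unknown way, its level is uncertain. Atp5l and Atp5o share exon bases with genes on the opposite strand, and Atp5o also with a second entry of its own symbol. Atp5k, subunit e, had a log2 fold change of 0.66, or 0.12 with the offset (adjusted p = 0.46). The proton-carrying c ring is encoded by Atp5g1, Atp5g2 and Atp5g3, whose mature proteins are identical. Of these, Atp5g1 rose (log2 fold change 0.39, edgeR adjusted p = 0.0172), and Atp5g3 and Atp5g2 did not pass (0.20 and 0.44). The Atp5g1 call was lost without STAT3cKO replicate 3, wild type replicate 3 or wild type replicate 4 (edgeR adjusted p from 0.0686 to 0.0867). Per length, Atp5g3 was the highest of these in wild type, with 1643 CPM per kb in STAT3cKO hearts and 1435 in wild-type hearts. Atp5g2 was the lowest, with 6.52 and 4.82 CPM per kb. With multi-mapped reads handled in an unknown way, the level of Atp5g2 is uncertain too. Summed over its 15 members, complex V held 16712, 16550 and 14959 CPM in STAT3cKO hearts, against 15777, 14784 and 14462 CPM in wild-type hearts, and the sums overlapped.

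Among the assembly factors of complex IV, Cox14, Cox16, Cox17, Cox19 and Cox20 rose, and Cox11 and Cox15 fell. Cox19, which works with Cox17 in the space between the mitochondrial membranes, was at 44.0, 32.4 and 46.3 CPM in STAT3cKO hearts, against 23.5, 19.4 and 17.7 CPM in wild-type hearts (log2 fold change 1.02 ± 0.15 (SE), edgeR adjusted p = 0.000842). Its transcript is long for the group, at 2461 nt, and its log2 fold change was 1.06 with the offset (adjusted p = 0.000906). Cox17, the copper chaperone of complex IV, was at 212, 212 and 198 CPM in STAT3cKO hearts, against 146, 123 and 116 CPM in wild-type hearts (log2 fold change 0.69 ± 0.10 (SE), edgeR adjusted p = 0.000742), and it did not pass with the offset (log2 fold change 0.20, adjusted p = 0.109). With the offset on the longest transcripts it passed (log2 fold change 0.78, edgeR adjusted p = 0.000532), so its value rests on the transcript length chosen. Cox17 also shares exon bases with Gm21987 on the same strand. Cox14, which binds newly made COX1, was at 118, 112 and 120.3 CPM in STAT3cKO hearts, against 89.1, 76.2 and 68.8 CPM in wild-type hearts (log2 fold change 0.58 ± 0.10 (SE), edgeR adjusted p = 0.00184), and did not pass with the offset (0.21, adjusted p = 0.0789).

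Cox15, which makes heme A, fell, at 30.2, 37.7 and 27.5 CPM in STAT3cKO hearts, against 46.3, 42.8 and 49.6 CPM in wild-type hearts (log2 fold change -0.54 ± 0.12 (SE), edgeR adjusted p = 0.00709). Cox11, which inserts copper into COX1, fell as well, at 13.2, 14.3 and 12.0 CPM in STAT3cKO hearts, against 19.3, 17.3 and 20.8 CPM in wild-type hearts (log2 fold change -0.54 ± 0.12 (SE), edgeR adjusted p = 0.00765). Neither overlapped between the groups, and both passed in all 6 fits that left out 1 heart. With the offset Cox11 was still lower (-0.72, adjusted p = 0.00275) and Cox15 did not pass (-0.34, 0.0565), though it did on the longest transcripts (log2 fold change -0.35, edgeR adjusted p = 0.0485). Cox11 and Cox15 share exon bases with Tom1l1 and Entpd7 on the opposite strand, so without a known strand setting their counts are uncertain. Cox10, which acts before Cox15 in heme A synthesis, had a log2 fold change of -0.12, and Cox18, which helps insert COX2, of -0.24, and neither passed (edgeR adjusted p = 0.434 and 0.381).

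Of the 4 complex II assembly factors, 3 rose. Sdhaf4, which aids the assembly of Sdha with Sdhb, was at 35.8, 32.1 and 36.6 CPM in STAT3cKO hearts, against 21.0, 20.0 and 20.0 CPM in wild-type hearts (log2 fold change 0.78 ± 0.10 (SE), edgeR adjusted p = 0.00037), in the opposite direction to Sdha. Sdhaf2, needed to attach the flavin to Sdha, and Sdhaf3 rose with log2 fold changes of 0.33 and 0.57, and Sdhaf1 did not pass (0.11). The Sdhaf2 call did not hold without wild type replicate 1 (adjusted p = 0.0624) or wild type replicate 3 (adjusted p = 0.0657), nor the Sdhaf3 call without wild type replicate 3 (adjusted p = 0.0563). Sdhaf2, Sdhaf3 and Sdhaf4 all passed with the offset (edgeR adjusted p = 0.00788, 0.00791 and 0.016). Cox7a2l, which links complex III with complex IV in supercomplexes and had the highest mean CPM of this class, was at 229, 203 and 207 CPM in STAT3cKO hearts, against 173, 159 and 158 CPM in wild-type hearts (log2 fold change 0.38 ± 0.09 (SE), edgeR adjusted p = 0.00919). It did not pass with the offset (0.17, adjusted p = 0.205) or with library size alone (adjusted p = 0.0599). Cox16 (1.17) and Cox20 (0.40) rose, and Atp5s (0.26) and Atp5sl (0.09) did not pass. Neither Cox16 nor Cox20 passed with the offset (adjusted p = 0.0631 and 0.507). Cox20 shares exon bases with Hnrnpu on the opposite strand. Cox16 shares exon bases with another gene, Gm20498, and its call was lost without STAT3cKO replicate 3, STAT3cKO replicate 6, STAT3cKO replicate 91, wild type replicate 3 or wild type replicate 4 (edgeR adjusted p from 0.0557 to 0.104).

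Among other genes of the pathway, all 5 genes for cytochrome c and subunits named otherwise were higher, and 3 of the 5 passed with the offset. The call for Cycs, cytochrome c itself, was lost without STAT3cKO replicate 3, wild type replicate 1 or wild type replicate 3 (edgeR adjusted p from 0.119 to 0.181) and with DESeq2 (adjusted p = 0.0541). Atpif1, the inhibitor of ATP hydrolysis by complex V, was at 166, 173 and 229 CPM in STAT3cKO hearts, against 105, 85.9 and 93.1 CPM in wild-type hearts (log2 fold change 1.0 ± 0.13 (SE), edgeR adjusted p = 0.000429). Ndufa4, a complex IV subunit despite its name, was at 1086, 983 and 948 CPM in STAT3cKO hearts, against 692, 609.8 and 567 CPM in wild-type hearts (log2 fold change 0.69 ± 0.11 (SE), edgeR adjusted p = 0.000976), and did not pass with the offset (0.18, adjusted p = 0.205). Of 23 further assembly factors tested, 7 were higher and 1 lower, while 13.2% of all genes tested were higher and 12.6% lower. With the offset 3 were higher and 2, Taco1 and Higd2a, were lower, while 10.6% of all genes tested were higher and 7.84% lower. Cmc1, which binds COX1 during assembly, averaged 16.9 ± 0.914 CPM in STAT3cKO hearts and 9.84 ± 0.671 CPM in wild-type hearts (SD, n = 3 each; log2 fold change 0.78, edgeR adjusted p = 0.00101). Taco1, a translational activator of COX1, was the lower one (log2 fold change -0.37, edgeR adjusted p = 0.015), a call lost without STAT3cKO replicate 3 (adjusted p = 0.062) or wild type replicate 4 (adjusted p = 0.0663).

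The 6 subunits that mitochondrial DNA gives to these complexes all had positive log2 fold changes. Of the 6, 3 were called higher, COX2, COX3 and ATP6, while 13.2% of all genes tested were higher. The 3 averaged 582, 300 and 171 CPM in STAT3cKO hearts, where COX1 averaged 131849 and CYTB 61564 CPM. COX1, CYTB and ATP8 did not pass (edgeR adjusted p = 0.243, 0.107 and 0.354). How multi-mapped reads were treated is not given, so the levels of COX2, COX3 and ATP6, far below those of COX1 and CYTB, are uncertain. ATP6 of complex V was at 186, 177 and 152 CPM in STAT3cKO hearts, against 114, 128 and 109 CPM in wild-type hearts (log2 fold change 0.55 ± 0.10 (SE), edgeR adjusted p = 0.00268). Of 15 regulators of these genes, 1 was higher and 0 lower, while 13.2% of all genes tested were higher and 12.6% lower. The higher regulator was Slirp, which stabilises mitochondrial mRNA (log2 fold change 0.83, edgeR adjusted p = 0.00339). The coactivator Ppargc1a (-0.14, edgeR adjusted p = 0.448), the receptor Esrra (0.23, 0.151) and the factors Nrf1 (0.06, 0.772) and Tfam (0.10, 0.443) did not pass. With the offset 2 regulators were higher, while 10.6% of all genes tested were higher and 7.84% lower. The 2 were Slirp and the receptor Esrrg (log2 fold change 0.33, edgeR adjusted p = 0.0279 with the offset). Without it Esrrg did not pass (0.11, 0.455).

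In the same hearts, summed cardiomyocyte markers ran from 55587 to 65939 CPM in STAT3cKO hearts and from 48264 to 53844 CPM in wild-type hearts, with 3 of 8 higher and 1 lower. Endothelial markers summed to 671 to 742 CPM in STAT3cKO hearts and 1047 to 1219 CPM in wild-type hearts, with 5 of 6 lower. Macrophage markers summed to 124 to 188 CPM in STAT3cKO hearts and 240 to 284 CPM in wild-type hearts, with 4 of 6 lower, and smooth muscle markers to 50.3 to 72.8 CPM in STAT3cKO hearts and 183 to 354 CPM in wild-type hearts, with 2 of 4 lower. Fibroblast markers overlapped, at 1632 to 2157 CPM in STAT3cKO hearts and 1279 to 1868 CPM in wild-type hearts, with 1 of 6 higher and 2 lower. Red cell markers were at 334 to 685 CPM in STAT3cKO hearts and 90.7 to 159 CPM in wild-type hearts, with 4 of 5 higher. Among all genes tested 13.2% were higher and 12.6% lower. With the offset those shares were 10.6% and 7.84%. In that fit 1 cardiomyocyte marker was higher and 0 lower, and 1 red cell marker was higher. There 4 endothelial, 5 macrophage and 2 smooth muscle markers were lower, and fibroblast markers had 1 higher and 1 lower. Median transcript length was 699 nt for the red cell markers, 1285 nt for cardiomyocyte and 2208 nt for smooth muscle markers. It was 3497 nt for macrophage, 4043 nt for endothelial and 5456 nt for fibroblast markers. In bulk hearts fewer cells of a type and less RNA per cell cannot be told apart, and the part of cell makeup in the members' differences was not tested.

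Skeletal muscle and brown fat also use Cox7a1 and Cox8b. The skeletal muscle markers Myh1, Myh2, Myh4 and Actn3 fell under the count filter, with Myh4 at 0 in all hearts, and of the 3 tested Tnnt3 was higher and Casq1 lower. Their summed level, mostly Acta1, was 114 to 418 CPM in STAT3cKO hearts and 186 to 321 CPM in wild-type hearts. Ucp1, the defining brown fat gene, had 0 counts in every heart, and Adipoq, Plin1 and Zic1 fell under the filter. Cidea and Dio2 were tested and did not pass, and the 6 brown fat markers summed to 26.0 to 46.1 CPM in STAT3cKO hearts and 23.6 to 24.8 CPM in wild-type hearts.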

How the data were processed

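Total RNA of 6 mouse hearts was extracted with Trizol and made into Illumina libraries, per the labels' protocols. The submitters' processing notes name HISAT2, with no version, and the mouse build GRCm38. The values deposited by the authors are unnormalized counts of reads for each gene symbol. No source used here names the counting program, its strand setting or its handling of multi-mapped reads.

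The filterByExpr function of edgeR 4.0.16 (minimum count 10) selected the genes, TMM scaled them, and the robust quasi-likelihood F test compared the groups in R 4.3.3, with genotype as the only term and Benjamini-Hochberg adjustment over all 14484 genes tested. SE was derived from the log2 fold change and F. The test was tried on simulated data drawn at a common dispersion with no length trend, so that trial does not bear on length dependence. Isoform log2 ratios used counts plus 0.5 and a two-sided exact permutation test. The offset is a per-heart spline (5 degrees of freedom each) on log2 transcript length and GC content, from GENCODE M21 principal transcripts at their lower median length, which covered all 61 members. Coordinates are from RefSeq (GRCm38.p6), where 3 members matched by an older symbol. Of the members, 22 share exon bases with another annotated gene. Where that gene lies on the opposite strand, as for Cox6c and Uqcrc2, counts are uncertain without a known strand setting. The 9 pseudogene entries left out held 0 to 262 counts.

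Alternatives were DESeq2 1.42.0 (its Wald test, and its size factors in edgeR), limma-voom (limma 3.58.1), library size alone, no or a stricter filter (1 CPM in 3 libraries and a mean count of 50), no mitochondrial genes, the offset and leaving out each heart. The members, lists and these choices were made with earlier results of these data known. Named in full were the genes of the isoform pairs, up to 4 members per class and direction with the smallest adjusted p, the highest member of each class, every lower member and up to 4 other pathway genes per direction. Other genes were named after their values were seen.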

Additional observations from a re-analysis of the deposited data

How the results depend on the processing

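Of the 59 tested members, 37 higher and 3 lower became 12 and 4 with the length and GC offset, and 14 and 4 with that offset on the longest transcripts (an alternative chosen after seeing the data). With the offset, complex II had 0 higher and 1 lower, complex III 1 higher, complex IV 4 higher and 1 lower, complex V 3 higher and 1 lower, and the assembly class 4 higher and 1 lower. On the longest transcripts complex II had 0 higher and 1 lower, complex III 1 higher (another gene), complex IV 4 higher and 1 lower, complex V 4 higher and 0 lower, and the assembly class 5 higher and 2 lower. Library size alone moved the median over all genes to a log2 fold change of -0.11 and the share of calls that were higher to 29.0%, against 51.3%. It left 25 members higher and 5 lower (83.3% of member calls higher, against 92.5%), with 1 higher in complex II, 6 in complex IV and 5 in the assembly class, and 2 lower in complex V. With DESeq2, 1 member of complex V was lower. The causes of these differences beyond the settings themselves were not tested.

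Leaving out 1 heart left 25 to 34 members higher and 3 lower, while 8.35% to 12.7% of all genes tested in these fits were higher, with 0 to 2 higher in complex II, 5 in complex III, 6 to 10 in complex IV, 7 to 10 in complex V and 6 to 8 in the assembly class, where 2 stayed lower. Without wild type replicate 3, complex II had 0 higher. Of the 37 higher members, 24 passed in all 6 such fits. Leaving out 1 heart gave differences of log2 ratios from 0.72 to 0.94 for Cox6a2 over Cox6a1, 1.05 to 1.56 for Cox8b over Cox8a, -0.58 to -0.38 for Cox7a1 over Cox7a2 and -0.55 to -0.19 for Cox4i2 over Cox4i1.

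Log2 fold changes changed sign in some fits. Cox4i2 was at -0.082 with library size alone, -0.0031 with limma-voom, -0.34 and -0.36 with the offset on median and longest transcripts, and -0.20 and -0.13 without STAT3cKO replicate 3 and wild type replicate 4. Leaving out 1 heart gave -0.20 to 0.27 for Cox4i2 and -0.14 to 0.046 for Cox6a1. Cox6a1 was at 0.046 without STAT3cKO replicate 6 and 0.03 without wild type replicate 1, and lower at -0.54 and -0.58 with the offset on median and longest transcripts. Of members called higher, Cox7a1 was at -0.18 and -0.22 and Cox8a at -0.23 and -0.27 with these offsets, and Cox4i1 was at -0.0023 on the longest. No paired analysis was possible because the groups share a single replicate number, 3.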
